A study of Mus musculus with 11 samples.

Results

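TRPM2 is a calcium-permeable cation channel that opens when ADP-ribose binds its cytoplasmic domains, and the genes described here are Trpm2 and the enzymes that make, release or break down ADP-ribose. They were 10 genes chosen by name. Trpm2 was the sensor, and Parp1, Parp2, Cd38 and Parg were the sources. Adprhl2, Macrod1 and Oard1 were removers of protein-bound ADP-ribose, and Nudt5 and Nudt9 were removers of free ADP-ribose. A probe set is the group of short oligonucleotides that reports 1 transcript. Of the 10 genes, 9 had a probe set carrying their own symbol and no other, out of 22180 genes so represented. Each of the 9 had 1 such probe set, so none was chosen over another by brightness. Cd38, the ectoenzyme that makes ADP-ribose and cyclic ADP-ribose from NAD, was matched to no probe set and was not analysed here.

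Total RNA was taken from S3 proximal tubule, the straight end of the proximal tubule in the outer medulla, of mice of the 129/SvEv strain. The groups were wild type (WT, 6 arrays) and THP -/- (5 arrays), mice without Tamm-Horsfall protein, which is uromodulin, the product of Umod. Batch 1 held 5 wild-type and 3 THP -/- arrays, and batch 2 held 1 wild-type and 2 THP -/- arrays. The labels state neither age nor sex nor the design of the deleted allele. They do not say that each array is a separate mouse, so p-values measure the spread between arrays, which may be technical. The series title concerns circulating uromodulin, systemic oxidative stress and inactivation of TRPM2, so the comparison asks whether transcripts of the channel and its ligand's metabolism differ in S3 when uromodulin is missing.

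As background, oxidants break DNA, and PARP1 and PARP2 respond by building chains of ADP-ribose from NAD on proteins. PARG cuts the chains and frees ADP-ribose, which makes it a source of the free ligand and a remover of the polymer. Adprhl2 (ARH3), Macrod1 and Oard1 (TARG1) take the last ADP-ribose units off proteins or hydrolyse related esters. They are called removers of the bound form, which does not mean removal of the free ligand. NUDT5 and NUDT9 are Nudix hydrolases that split free ADP-ribose into AMP and ribose phosphate, NUDT5 in cytosol and nucleus and NUDT9 in mitochondria. The C-terminal domain of TRPM2 resembles NUDT9. Channel opening is set by ligand and calcium, so transcript levels describe the supply of these proteins, not channel activity.

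The 41345 log2 signals had array medians between 3.85 and 4.01. Umod ran from 5.27 to 6.74 in wild type and from 3.68 to 5.27 in THP -/-, with THP -/- replicate 5 level with the lowest wild-type arrays. No source used here says whether its probe set lies in the deleted part. A background level was set on each array as the 95th percentile of 1405 probe sets of olfactory and vomeronasal receptor genes, most of which are known from sensory tissue although a few have been found in kidney tubules, and lay between 4.34 and 4.89. Umod was above it on all 6 wild-type and on 3 of 5 THP -/- arrays. Of 9 S3 markers, 8 were above it on all 11 arrays. So were 4 of 7 markers of the neighbouring thick ascending limb and 4 of 7 markers of the S1 and S2 segments of the proximal tubule. All 9 S3 markers and all 7 thick limb markers had fitted differences above 0 in THP -/-, where 53.4% of all genes did. So did 7 of 7 endothelial and 4 of 5 distal convoluted tubule markers, against 1 of 7 markers of the S1 and S2 segments. The summed linear signal of the S3 list ran from 5828 to 11475 in wild type and from 7777 to 14352 in THP -/-. That of the S1 and S2 list ran from 2603 to 7662 and from 2306 to 7471, and that of the thick limb list from 443 to 792 and from 561 to 2726. THP -/- replicate 4 stood apart with the highest thick limb mean (7.79 on the log2 scale, against at most 6.28 on the others). It was also the highest for the distal convoluted tubule list (5.91, against at most 4.98) and the collecting duct list (5.74, against at most 4.81). Fewer cells of a type and less RNA per cell cannot be told apart in such samples, and the part of segment content in the differences below was not tested.

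The promoters of Trpm2 and of Adprhl2 are shown because Trpm2 is the channel in question and Adprhl2 had the smallest p of the measured genes. Both are RefSeq windows of build GRCm38.p6, from 250 bases before to 50 bases after the annotated start, on the minus strand, written 5′ to 3′ with every CG dinucleotide in capitals. The Trpm2 window lies at chr10:77969823-77970122 and the Adprhl2 window at chr4:126321654-126321953.
Trpm2: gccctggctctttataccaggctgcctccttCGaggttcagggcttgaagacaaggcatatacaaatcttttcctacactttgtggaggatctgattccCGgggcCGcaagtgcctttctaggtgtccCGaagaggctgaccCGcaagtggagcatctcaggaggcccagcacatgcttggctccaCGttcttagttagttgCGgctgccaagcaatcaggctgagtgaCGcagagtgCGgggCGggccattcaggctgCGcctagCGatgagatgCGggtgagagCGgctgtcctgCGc
Adprhl2: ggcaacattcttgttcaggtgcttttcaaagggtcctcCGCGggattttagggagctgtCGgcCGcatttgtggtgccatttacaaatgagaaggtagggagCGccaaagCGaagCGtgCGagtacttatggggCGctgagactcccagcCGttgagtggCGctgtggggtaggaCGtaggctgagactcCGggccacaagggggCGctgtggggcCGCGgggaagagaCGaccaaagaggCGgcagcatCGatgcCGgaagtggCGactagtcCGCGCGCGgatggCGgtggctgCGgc
The Trpm2 window held 15 CG dinucleotides and the Adprhl2 window 27, against a median of 7 over all 32851 windows. Of all windows, 34.6% held at least as many as Trpm2 and 15.5% at least as many as Adprhl2. All 9 measured genes matched windows, 12 in total, with 13 to 33 CG dinucleotides each. The GC box (GGGCGG on either strand) was found in 7 of the 12 windows, that of Trpm2 among them, against 35.7% of all windows. Some genes had more than 1 window, and counted by gene 5 of the 9 had a GC box. The core of the antioxidant response element (TGACNNNGC on either strand, which can share bases with a GC box) was found in 2 of the 12, of Oard1 and Nudt5, against 12.4% of all windows. These are matches of letters, not measured binding. The window of Parg overlapped that of Timm23, and 1 of the Oard1 windows that of Nfya, both on the opposite strand.

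None of the 9 measured genes differed between genotypes at an adjusted p under 0.05. In limma with genotype and batch as terms and Benjamini-Hochberg adjustment over all probe sets, 0 of 9 passed, as did 0 of all 41345 probe sets (0.0%). Their adjusted p ran from 0.70 to 0.99. Umod, with a fitted log2 difference of -1.52, had a limma adjusted p of 0.28 and did not pass either. A difference of that size was thus missed by the test, so 0 of 9 passing does not show that the genes were unchanged. At an unadjusted p under 0.05, 1 of 9 was called, Adprhl2, which is 11.1% against 6.16% of all probe sets. With 1 probe set a gene, as for the 9, 3.64% of all genes were called higher and 2.0% lower. In 7 of the 9 the fitted difference was below 0 and in 2, Parp1 and Adprhl2, above 0, where 53.4% of all genes were above 0. The median difference was -0.06, against 0.01 over all genes. The arrays of both genotypes overlapped for all 9 genes, and 0.597% of all probe sets did not overlap.

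**Figure D1:**
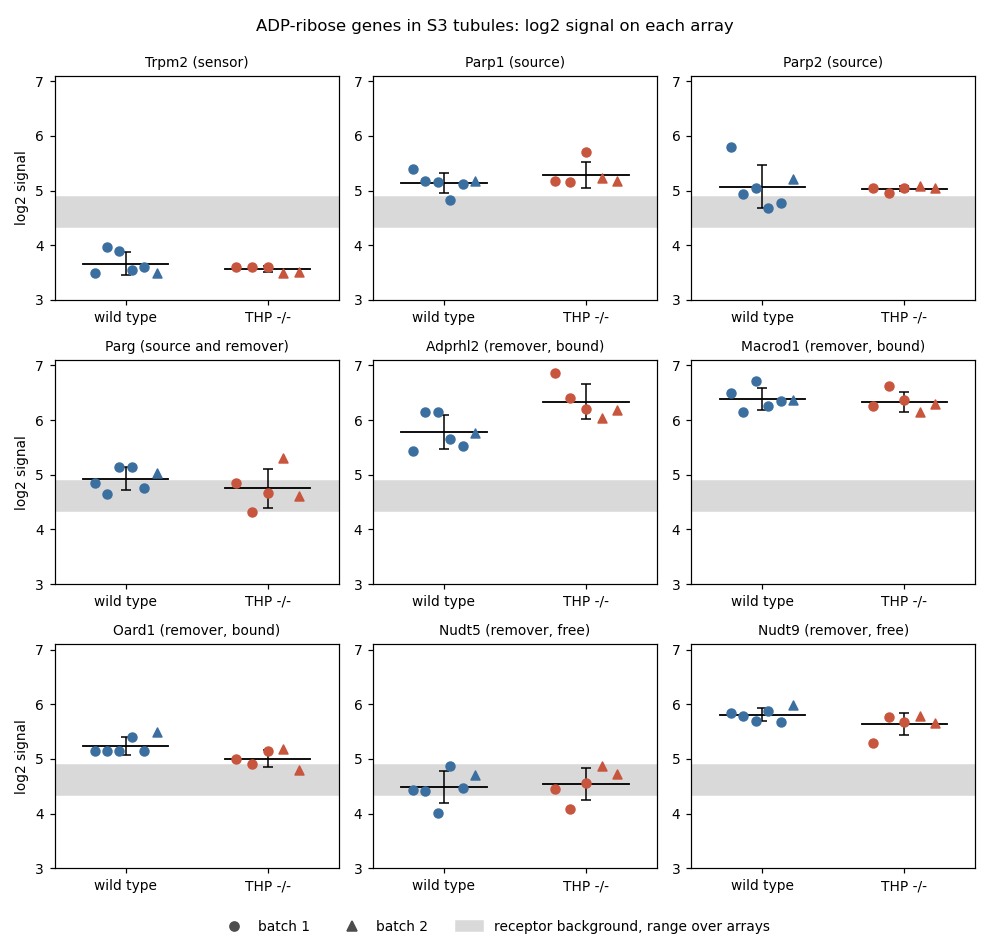
Log2 signal of each measured gene on every array, wild type in blue and THP -/- in red, with circles for batch 1 and triangles for batch 2; black bars give the mean and SD of each group, and the grey band is the range of the receptor background over the 11 arrays (4.34 to 4.89). Trpm2 lies below the band on all arrays, and Adprhl2 is the one panel in which 4 of 5 THP -/- arrays sit above every wild-type array.

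Trpm2, the sensor, gave a signal under the receptor background on 11 of 11 arrays (Entrez 28240, probe set 17242335). Wild-type arrays ran from 3.49 to 3.96 with a median of 3.58. THP -/- replicates 1 to 5 read 3.61, 3.60, 3.61, 3.49 and 3.52. All THP -/- values fell inside the wild-type range, and the wild-type spread came mostly from replicates 2 and 3, at 3.96 and 3.89. The group means were 3.66 ± 0.209 (SD, n = 6) and 3.57 ± 0.057 (SD, n = 5). Within each array 78.0% to 89.3% of receptor probe sets were dimmer than Trpm2. The fitted log2 difference was -0.06 ± 0.12 (SE), with a 95% interval from -0.32 to 0.20 and a limma adjusted p of 0.95. Since Trpm2 did not exceed the background, no fold is given, and the interval does not bound a change in transcript.

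The 3 genes whose signal followed that of Trpm2 most closely, out of 22179 compared over the 11 arrays, were Olfr20, an olfactory receptor, Fscn3, a fascin of testis, and Krtap5-5, a hair keratin-associated protein. Pearson's r was 0.947, 0.931 and 0.921, with Spearman's rho of 0.845, 0.559 and 0.854. These genes were picked as the highest of all, and share arrays and normalization with Trpm2, so the values are a description and carry no p. All 3 lay under the receptor background on every array. Without wild-type replicates 2 and 3, the 2 arrays farthest from the Trpm2 median, r was 0.748, 0.135 and 0.67, so the likeness of Fscn3 rested on those arrays. Phagocytes are known to carry TRPM2, and 7 of the 11 measured macrophage and leukocyte markers, among them Ptprc, Adgre1, C1qa and Itgam, were never above the background either. The summed signal of that list ran from 205 to 266 in wild type and from 252 to 306 in THP -/-, and Csf1r alone was above background on every array.

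**Figure D2:**
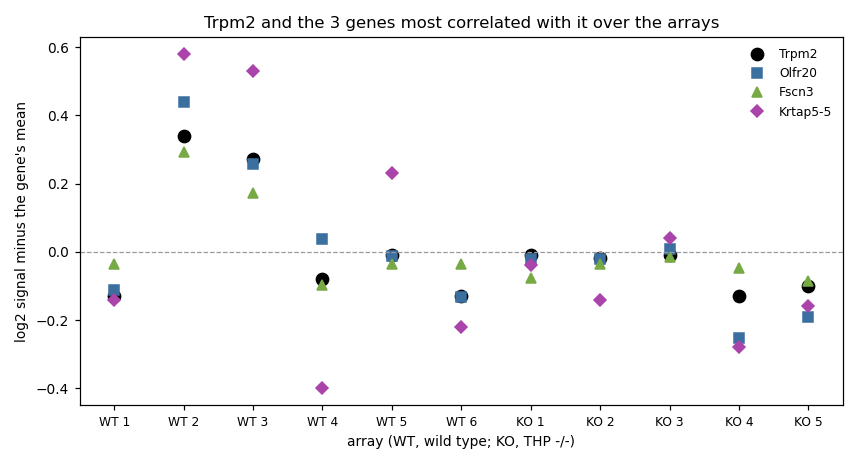
Log2 signal minus the gene's own mean over the 11 arrays, for Trpm2 and the 3 genes with the highest Pearson correlation with it. The 4 genes stand highest together on wild-type replicates 2 and 3, where Trpm2 read 3.96 and 3.89.

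Of the sources, Parp1, the main DNA break sensor that makes poly(ADP-ribose), was above background on 10 of 11 arrays. Wild-type arrays ran from 4.83 to 5.39 with a median of 5.17, and THP -/- replicates 1 to 5 read 5.18, 5.15, 5.71, 5.23 and 5.18. THP -/- replicate 3 alone exceeded the wild-type range. The fitted log2 difference was 0.16 ± 0.14 (SE), a limma adjusted p of 0.88, and it was 0.03 without that replicate. Parp2, its partner in the same repair, read 4.68 to 5.79 in wild type, with a median of 4.995, and 5.05, 4.95, 5.05, 5.08 and 5.05 in THP -/-. The THP -/- arrays were close together inside a wide wild-type range, and the difference of -0.06 ± 0.19 turned to 0.07 without wild-type replicate 1, the highest array at 5.79. Parg, the glycohydrolase that frees ADP-ribose from the chains, ran from 4.64 to 5.15 in wild type with a median of 4.94. THP -/- replicates 1 to 5 read 4.85, 4.32, 4.67, 5.30 and 4.62, so 4 of 5 were below the wild-type mean of 4.93, and the exception was replicate 4, the array with the high thick limb and distal signal. Its difference was -0.23 ± 0.17 (limma adjusted p = 0.86), -0.32 without replicate 4 and -0.12 without replicate 2. Parg was above background on 8 of 11 arrays and Parp2 on 9.

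Adprhl2, which removes ADP-ribose from serine residues and also cuts the chains, showed the widest separation of the 9 genes (Entrez 100206, probe set 17430023). Wild-type arrays ran from 5.43 to 6.15 with a median of 5.71, and THP -/- replicates 1 to 5 read 6.86, 6.40, 6.20, 6.04 and 6.18. In THP -/- 4 of 5 arrays lay above the highest wild-type array, and replicate 4 lay within the wild-type range. The means were 5.78 ± 0.308 (SD, n = 6) and 6.34 ± 0.320 (SD, n = 5). The fitted log2 difference was 0.61 ± 0.19 (SE), a ratio of 1.53 with a 95% interval from 1.15 to 2.03, an unadjusted p of 0.00762 and a limma adjusted p of 0.70. By p it ranked 450th of the 41345 probe sets, so it did not pass the test. The difference was 0.70 within batch 1 and 0.35 within batch 2. Without THP -/- replicate 1, its highest array, it was 0.46, and without replicate 4, the array with high thick limb and distal signal, it was 0.64.

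The other enzymes acting on protein-bound ADP-ribose gave smaller differences, none past the threshold. Oard1, which takes ADP-ribose off glutamate and aspartate, read 5.14 on 4 of 6 wild-type arrays and 5.40 and 5.49 on replicates 4 and 6. THP -/- replicates 1 to 5 read 5.0, 4.91, 5.14, 5.19 and 4.80, so 3 of 5 lay under every wild-type array. Its log2 difference was -0.26 ± 0.12 (SE), with a 95% interval from -0.52 to 0.01, an unadjusted p of 0.0547 and a limma adjusted p of 0.81. It was -0.18 within batch 1 and -0.50 within batch 2, where wild-type replicate 6 is the lone wild-type array. Macrod1, a macrodomain hydrolase of mitochondria, ran from 6.14 to 6.72 in wild type and from 6.14 to 6.63 in THP -/-, nearly the same range. Its difference was -0.02 ± 0.13, with 0.02 within batch 1 and an interval from -0.32 to 0.27.

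Of the hydrolases of free ADP-ribose, neither passed the threshold. Nudt9 ran from 5.67 to 5.98 in wild type with a median of 5.82, and read 5.29, 5.76, 5.68, 5.79 and 5.65 in THP -/-. All 5 THP -/- arrays were below the wild-type mean of 5.81, though 3 of them were inside the wild-type range. Its difference was -0.21 ± 0.11 (SE), a limma adjusted p of 0.83, and -0.12 without replicate 1, the lowest array. Nudt5 ran from 4.01 to 4.88 in wild type, against 4.45, 4.09, 4.56, 4.88 and 4.73 in THP -/-, and was above background on 5 of 11 arrays. The groups covered the same range, and its difference of -0.03 ± 0.16 turned to 0.06 without the batch term. Adprhl2, Macrod1, Oard1 and Nudt9 were above background on all 11 arrays.

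**Figure D3:**
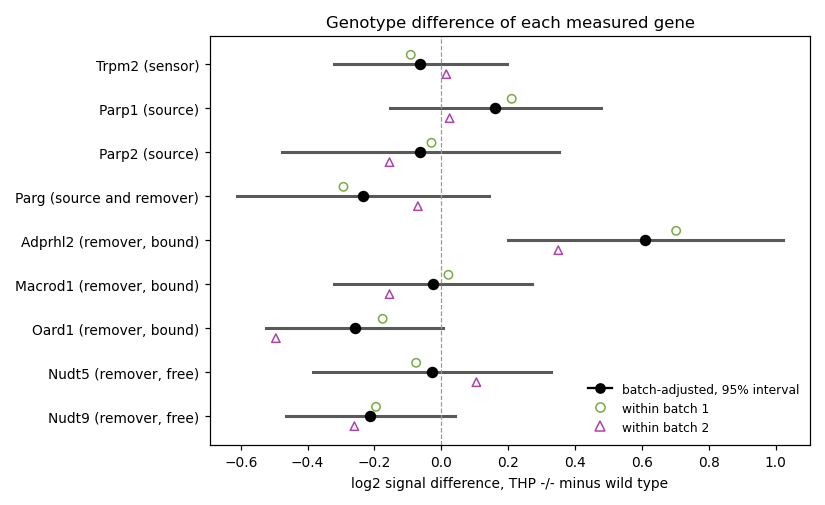
Log2 signal difference, THP -/- minus wild type, for each measured gene: black points are batch-adjusted values from limma, bars are 95% intervals, green circles are differences within batch 1 and purple triangles within batch 2. The interval of Adprhl2 lies above 0 before any adjustment for the number of probe sets, and the other 8 include 0.

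Leaving Trpm2 aside, the 95% interval of 7 of the 8 other genes stayed within a ratio of 2 in either direction, and that of Adprhl2 reached 2.03. Nudt5 is among the 7 but was above background on only 5 of 11 arrays, so its interval may not bound a change in transcript. The lowest bound was a ratio of 0.655, for Parg. Genotype differences had the same sign in both batches for 6 of 9 genes, the exceptions being Trpm2, Macrod1 and Nudt5. No array was high for the genes together: each of 8 arrays was the highest for 1 or 2 genes, and THP -/- replicate 4 was above the gene's mean for 7 of 9, wild-type replicate 5 for 1 of 9.

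The rest of NAD and ADP-ribose metabolism was described by lists chosen by function, with earlier results of these data known. The shares below are therefore a description and not an independent check. Of 61 further genes in 7 lists, 55 were measured, and 0 passed over all probe sets in limma. At an unadjusted p under 0.05, 5 of 55 were higher (9.09%, against 3.64% of all genes) and 2 lower (3.64%, against 2.0%). These counts varied with the arrays used, and the higher count was 2 without THP -/- replicate 3. It was 1 in batch 1 alone and 0 without wild-type replicate 6, the lone wild-type array of batch 2. Both of these settings take the genotype difference from batch 1 alone, so they are not separate checks, and they rest on fewer arrays. The lower count was 0 in batch 1 alone. Parp14 and Tdo2, the genes counted lower, were under the array median on every array. Either filter on dim probe sets removed them, so a lower count of 0 there was fixed in advance. The median difference was 0.04, against 0.01 over all genes.

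Among 17 other ADP-ribosyltransferases 11 had differences above 0, and Tiparp (PARP7), an ADP-ribosyltransferase induced by the aryl hydrocarbon receptor, was at 0.29 ± 0.13 (SE). It was 0.156 as the mean of its 2 probe sets and 0.191 without THP -/- replicate 3, with unadjusted limma p of 0.119 and 0.171. Parp14, a macrodomain transferase, was at -0.27 ± 0.11 between signals under the background. Of 4 other removers, Nudt16, which can process protein ADP-ribose, had the smallest p, at -0.11 ± 0.14. All 5 repair partners of PARP1 had differences above 0, where 53.4% of all genes did. Xrcc1 was above background on 11 arrays, Lig3 on 10, Chd1l on 2 and Aplf on 0. Hpf1, the factor that turns PARP1 and PARP2 to serine residues, the sites Adprhl2 clears, was at 0.61 ± 0.26, from 3.71 ± 0.139 (SD, n = 6) to 4.41 ± 0.678 (SD, n = 5), with THP -/- replicates 3 and 5 at 4.94 and 5.32 as its only arrays above background. Without replicate 3 the Hpf1 difference was 0.38. Of the other NAD glycohydrolases, Bst1 was at -0.10 ± 0.20 and under the background on every array, with values from -0.221 to -0.02 when an array was left out.

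Of 7 sirtuins, NAD-dependent deacylases that yield O-acetyl-ADP-ribose, 3 were above 0, and Sirt2, the cytosolic member, was at 0.32 ± 0.11. Its wild-type arrays ran from 7.43 to 7.70 and THP -/- replicates 1 to 5 read 7.90, 7.75, 7.89, 7.69 and 8.02, with 4 of 5 above every wild-type array. The Sirt2 difference was 0.211 with quantile normalization and 0.223 with the replicate number as a block, with unadjusted limma p of 0.12 and 0.233. With batch also in the model, that block takes the genotype difference from replicates 1 to 3 of each group alone. Of 16 NAD synthesis genes 9 were above 0. Haao, which makes quinolinate precursor from hydroxyanthranilate, was at 0.40 ± 0.14. Its THP -/- arrays (8.27 to 8.56) did not overlap the wild-type arrays (7.71 to 8.26), by a gap of a hundredth of a log2 unit. The value 8.26 was shared by 3 wild-type arrays, and 0.597% of all probe sets did not overlap. Kmo, an upstream step of the Haao pathway, was at 0.36 ± 0.15. Tdo2, the tryptophan-opening entry enzyme of that pathway, was at -0.26 ± 0.10 between signals under the background. Acmsd, which diverts the pathway away from NAD, was at -0.88 ± 0.46, and -0.37 without THP -/- replicate 2. The limma adjusted p of the genes named from these lists ran from 0.76 to 0.95.

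**Figure D4:**
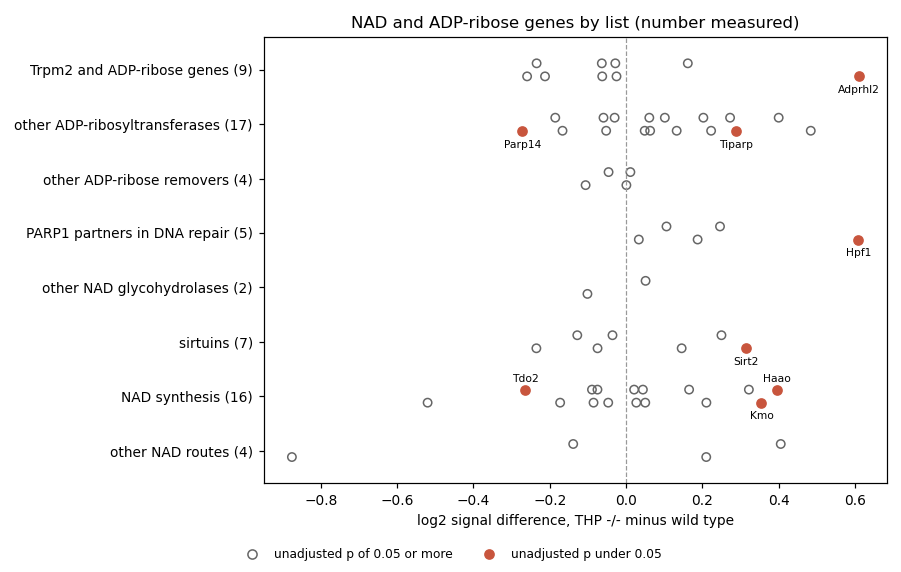
Log2 signal difference, THP -/- minus wild type, of the 9 measured genes and of 55 further NAD and ADP-ribose genes by list; each point is a gene, filled and named where the unadjusted limma p is under 0.05. The named genes are Adprhl2, Parp14, Tiparp, Hpf1, Sirt2, Haao, Kmo and Tdo2, and 0 of them passed the adjusted threshold.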

How the data were processed

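The authors deposited log2 values, 1 column per array, made with Partek 6.6 and RMA per the submitters' processing notes. RMA corrects background, brings the arrays to a like distribution and combines the oligonucleotides of a probe set into 1 value, which can shrink a shared change. RNA was extracted and amplified with kits for very small samples, per the labels' protocols. Batch correction, filters and genome build are not given in the sources used here. Detection calls were not used. Precision is limited by how many arrays there are.

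Probe sets were named from the platform annotation, which gave 23521 of them 1 symbol. All 41345 were fitted with limma 3.58.1 in R 4.3.3 (a two-sided test of genotype with batch in the model, on unfiltered values, 8 residual degrees of freedom), with Benjamini-Hochberg adjustment and a threshold of 0.05. On simulated data with the arrays' own spread over 41345 probe sets, 52 of 100 probe sets with a simulated log2 change of 1 were recovered, and 92 of 100 with a change of 2, beside 6 false calls. Smaller changes were not simulated, and the noise of each probe set was drawn independently, so the real data may give lower recovery. Umod, with a fitted log2 difference of -1.52 in the real data, had a limma adjusted p of 0.28 and was not called. The genes and lists were chosen with earlier results of these data known. The text names the 10 genes, Umod, up to 3 genes of each list at an unadjusted p under 0.05 (otherwise the smallest p) and 3 genes correlated with Trpm2. Timm23 and Nfya were named for their position. One planned list is not reported here. Alternatives covered batch, normalization, filters, weights, prior, probe choice, the replicate number as a block and each array left out. Plots were drawn with matplotlib 3.10.9.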

Additional observations from a re-analysis of the deposited data

Results flagged for a closer look

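Of 38 sets of arrays examined (9 genes and 10 named list genes, each in 2 groups), 5 held an array far from the rest by Dixon's gap ratio, and chance flags about 1 in 20. In THP -/-, Parp1 read 5.71 on replicate 3, against 5.23 on the next array. Parp2 read 4.95 on THP -/- replicate 2 where the nearest array read 5.05, a small gap in a narrow group. Nudt9 read 5.29 on THP -/- replicate 1, with the nearest array at 5.65. Acmsd read 4.90 on wild-type replicate 5 (nearest 6.26) and 3.84 on THP -/- replicate 2 (nearest 5.63). Wild-type replicate 5 and THP -/- replicate 2 also had the lowest means of the S1 and S2 proximal tubule marker list, 6.54 and 6.39, where the other arrays lay at 7.45 or more. The part of that in the Acmsd values was not tested.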

How the results depend on the processing

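No measured gene of the 9 passed the adjusted threshold under any of the alternatives run, and the differences of Trpm2, Parp1, Parg, Adprhl2, Oard1 and Nudt9 kept their sign under all of theirs. Trpm2 ran from -0.17 to -0.01 and was removed by both filters on dim probe sets, so it has no value there. Adprhl2 ran from 0.46 to 0.70, with adjusted p from 0.513 to 0.998. The count of the 9 genes at an unadjusted p under 0.05 was 0 with the replicate block and 2 with quantile normalization, which added Oard1. It ran from 1 to 2 with an array left out. Over all probe sets, 3 passed in batch 1 alone, 1 with 1 probe set a gene, and 0 to 11 with an array left out. Nudt5 turned to 0.057 without the batch term, 0.066 with batch as a random block, 0.080 with the replicate block and 0.029 with array weights, and ran from -0.103 to 0.076 with an array left out. Macrod1 turned to 0.021 in batch 1 alone and ran from -0.109 to 0.031 with an array left out. With an array left out Parp2 ran from -0.130 to 0.069 and Nudt16 from -0.204 to 0.007. The cause of these turns was not tested. Same-numbered arrays share only a number: correlations of their deviations ran from -0.18 to 0.01 over 5 pairs, and 0 of 5 wild-type arrays correlated best with their own number. Batch stayed in the model with the replicate block, so its genotype difference came from replicates 1 to 3 of each group, all in batch 1. With fewer arrays behind the difference, the replicate block gave a count of 1936 over all probe sets at an unadjusted p under 0.05, against 2546. With it 0 of the 55 list genes were higher at that p, and Haao was at 0.19, Kmo at 0.22 and Tdo2 at -0.143, none of them past it. Signals near the background, those of Trpm2, Nudt5 and Hpf1 among them, limit what can be measured.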

Other observations

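Among the deposited values, rounded to 2 decimals, many probe sets gave the same number on several arrays. Of all probe sets, 27.1% held 1 value on 3 or more arrays and 5.03% on 5 or more. Oard1 read 5.14 on 5 of 11 arrays (wild-type replicates 1, 2, 3 and 5 and THP -/- replicate 3), Parp1 read 5.18 on 4, Parp2 5.05 on 4 and Trpm2 3.49 on 3. Parp2, with 3 of its 5 THP -/- arrays at 5.05, had an SD of 0.050 there against 0.40 in wild type. What makes the ties was not tested.

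Timm23, an import channel subunit of mitochondria whose promoter window overlaps that of Parg on the other strand, differed by 0.37 ± 0.17 (SE) in its log2 signal while Parg differed by -0.23 ± 0.17, each with a limma adjusted p above the threshold (0.81 and 0.86). Nfya, which shares a promoter window with Oard1, differed by 0.02 ± 0.17.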
